A study of Mus musculus with 17 samples.

Results

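The genes described here dipped on day 2 after muscle injury: their level was lower in both macrophage groups of day 2 than in every macrophage group of days 1 and 4. They were chosen by measured values. For each gene a dip score was taken as the lowest of the 3 group values of days 1 and 4 minus the highest of the 2 group values of day 2, on the log2 scale, and the 100 genes with the highest scores became the members. A gene could score if 1 or more of the 5 macrophage groups had it at a log2 value of 6 or above and its symbol was neither a -ps pseudogene name nor Gm followed by digits. This held for 10111 of the 38087 genes in the table. The members' scores ran from 1.45 for Hspa1b, which is 2.73-fold, to 0.37, which is 1.29-fold, with a median of 0.50. Since the scores selected the genes, they are a description and carry no test.

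The donors of the cells are described as DBA/2J males, 3 months old. Their tibialis anterior had been injured with cardiotoxin, a venom component that destroys fibres and is followed by regeneration. By this description all groups share the strain, sex, age and injury, and no uninjured group was analysed here. Xist, which is transcribed from the inactive X chromosome of females, was 6.42 in neutrophils but between 0.00 and 1.77 in the macrophage groups. The source of this difference was not tested. The labels describe 6 groups sorted from injured muscle: neutrophils of day 1 (2 samples), and Ly6C high macrophages of days 1, 2 and 4 and Ly6C low macrophages of days 2 and 4 (3 samples each). In the deposited table each gene has 1 log2 value per group, used here as the authors' group mean. No spread between samples, standard deviation or p-value can therefore be given, and no difference could be weighed against replicate error. A fold is 2 raised to the difference of these log2 means. The values are not divided by gene length, so folds compare groups within a gene. Ranks and sums of levels across genes also depend on gene length. Where 5 values follow each other, the first 3 are the Ly6C high groups of days 1, 2 and 4 and the last 2 the Ly6C low groups of days 2 and 4.

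Ly6C marks monocytes that have recently entered tissue from the blood. After muscle injury such Ly6C high cells take part in inflammation and the clearing of debris, and they give rise to Ly6C low macrophages that accompany the rebuilding of fibres. Of the 4 members with the highest scores, 3 belong to the Hsp70 family, ATP-driven chaperones that bind unfolded proteins. The inducible Hsp70 genes are classical targets of heat shock factor 1, which binds heat shock elements, inverted repeats of the letters GAA, in their promoters.

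The sorted cells were checked against defining genes. Csf1r, the receptor for the macrophage growth factor CSF1, was between 13.31 and 14.71 in the 5 macrophage groups, and Ly6c2 was 9.65, 9.87 and 10.56 in the Ly6C high groups of days 1, 2 and 4 against 6.16 and 4.64 in the Ly6C low groups of days 2 and 4. The neutrophil group had Ly6g, a neutrophil surface gene, at 3.48, whereas all 5 macrophage groups had it listed at 0. The neutrophil group also had Csf1r at 13.27, a level like that of the macrophages. Markers of fibroblasts, endothelial cells, pericytes and muscle were present in the macrophage groups and were highest on day 4, in Ly6C high cells except for muscle. Their values stand beside the results they touch. In such bulk samples, fewer cells of a type and less RNA per cell cannot be told apart.

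The promoters of 3 heat shock members are shown because these genes lead or accompany the dip and because each holds a heat shock element. Such a match is no more frequent among the members than among eligible genes (13.5% against 13.97% of the genes with a promoter window). Hspa1l is not among the members with a match. Each run is the 250 bases before the gene's start on the gene's strand, from RefSeq (GRCm38.p6, a C57BL/6J reference and not the DBA/2J strain studied). Capitals mark a pair of inverted GAA units (GAANNTTC, or TTCNNGAA). The windows are chr17:34959239-34959488 (minus strand) for Hspa1b, chr17:34972157-34972406 (minus strand) for Hspa1a and chr5:135887669-135887918 (plus strand) for Hspb1.
Hspa1b: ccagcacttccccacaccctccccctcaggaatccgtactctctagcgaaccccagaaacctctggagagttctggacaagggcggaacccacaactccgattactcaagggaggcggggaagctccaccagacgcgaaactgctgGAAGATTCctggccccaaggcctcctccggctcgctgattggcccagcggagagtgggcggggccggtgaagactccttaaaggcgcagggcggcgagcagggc
Hspa1a: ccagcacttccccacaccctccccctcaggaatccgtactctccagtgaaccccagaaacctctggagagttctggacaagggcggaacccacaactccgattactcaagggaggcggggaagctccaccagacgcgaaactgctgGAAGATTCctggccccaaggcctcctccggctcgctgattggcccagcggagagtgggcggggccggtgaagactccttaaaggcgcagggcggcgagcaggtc
Hspb1: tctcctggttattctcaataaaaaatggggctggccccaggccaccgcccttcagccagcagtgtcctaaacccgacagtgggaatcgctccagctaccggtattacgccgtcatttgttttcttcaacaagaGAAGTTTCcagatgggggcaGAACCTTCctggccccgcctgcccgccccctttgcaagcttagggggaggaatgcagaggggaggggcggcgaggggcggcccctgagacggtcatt
The Hspa1a and Hspa1b windows are identical at 247 of 250 positions, and both hold the element at position -104, counted from the start. In Hspb1, 2 elements begin at -117 and -97.

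Among the members, the 3 genes of the Hsp70 cluster on chromosome 17 showed the deepest dips at high levels. Hspa1b (ENSMUSG00000090877) was 14.40 in Ly6C high cells on day 1, 11.69 on day 2 and 13.81 on day 4, and in Ly6C low cells 11.44 on day 2 and 13.13 on day 4. Hspa1a (ENSMUSG00000091971) was 14.29, 11.73 and 13.73 in the Ly6C high groups, and 11.54 and 13.14 in the Ly6C low groups. Hspa1l (ENSMUSG00000007033) was 9.04, 6.63 and 8.50 in the Ly6C high groups, and 6.50 and 7.92 in the Ly6C low groups. In each of the 3 genes day 1 was the highest group, the day 4 groups lay between, and both day 2 groups lay close together below them. For Hspa1b the day 1 level of Ly6C high cells was 6.56-fold that of day 2, and the day 4 level was 4.37-fold that of day 2. The corresponding folds were 5.90 and 4.01 for Hspa1a and 5.32 and 3.67 for Hspa1l. In Ly6C low cells the day 4 level was 3.24-fold, 3.05-fold and 2.68-fold that of day 2 for Hspa1b, Hspa1a and Hspa1l.

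The Hsp70 genes are neighbours in GENCODE M21 on GRCm38. Hspa1b lies at chr17:34956436-34959238 and Hspa1a at chr17:34969190-34972156, both on the minus strand and 9951 bp apart. Hspa1l, at chr17:34972703-34979285, starts 546 bp from Hspa1a on the plus strand. Hspa1a and Hspa1b encode nearly identical proteins, so how the authors' counting shared reads between them is uncertain, and their values are not independent of each other. Reads behind these values are many. The lowest day 2 value of Hspa1l stood for about 572 reads summed over its group's libraries, as read from the steps of the low values. The counting error of its score was 0.07.

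**Figure D1:**
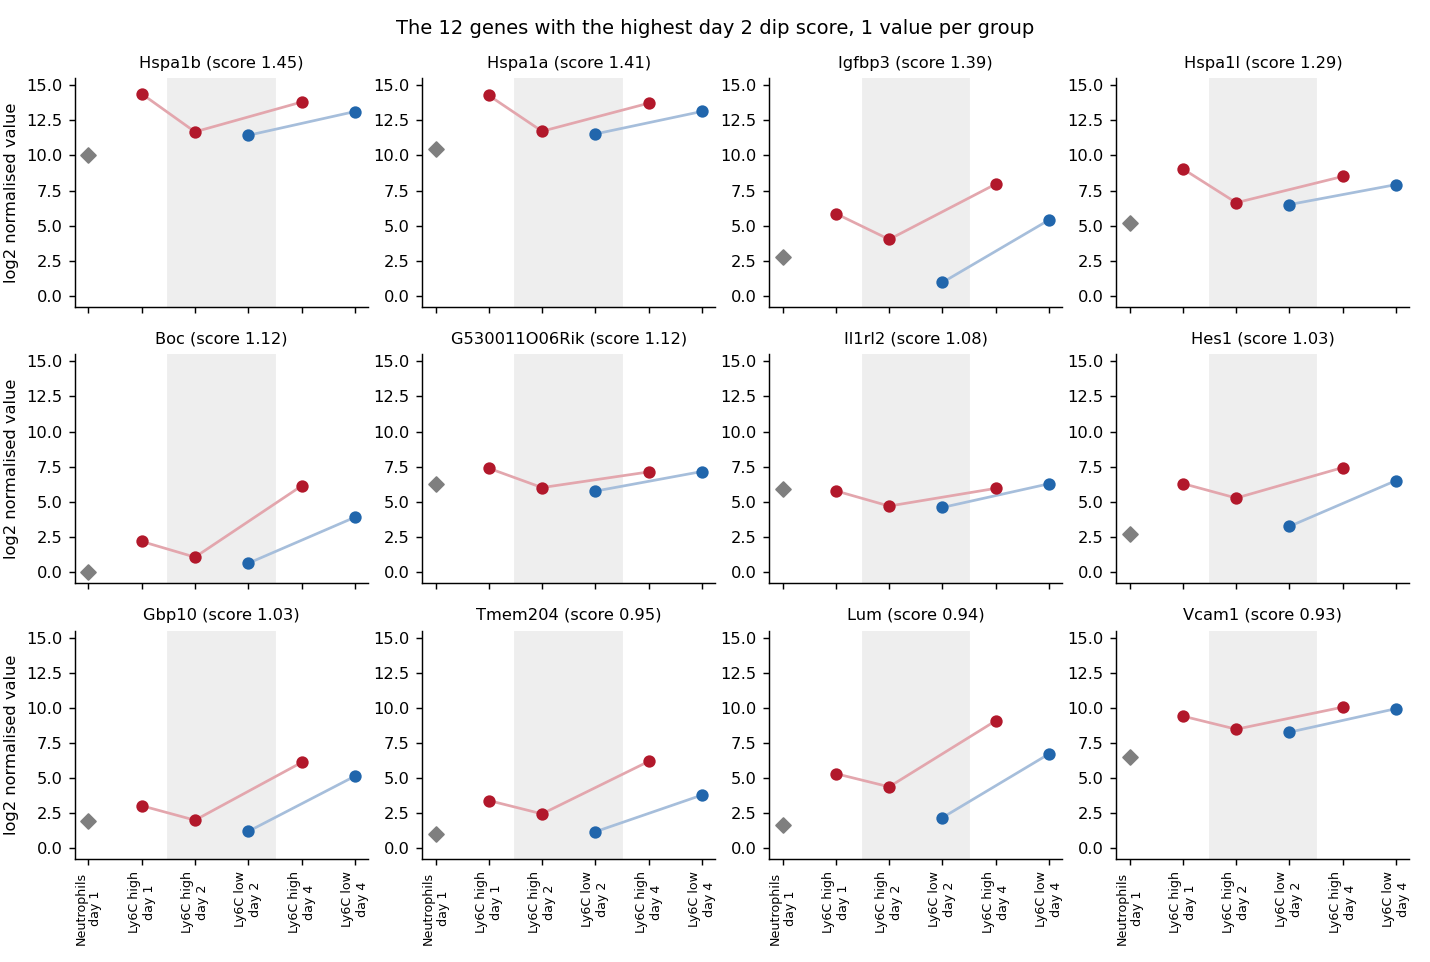
Log2 normalised value (1 value per group, the authors' mean) of the 12 genes with the highest dip scores in day 1 neutrophils (grey diamonds) and in Ly6C high (red) and Ly6C low (blue) macrophages. Lines join the groups of one sort across days and grey bands mark day 2. Both day 2 points lie below every other macrophage point in each panel, as the rule requires. Hspa1b, Hspa1a and Hspa1l are highest on day 1, while Igfbp3, Boc, Gbp10, Tmem204 and Lum are highest in Ly6C high cells on day 4. Igfbp3, Boc, Gbp10 and Tmem204 reached the filter value of 6 in that group only.

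The fourth heat shock member took another course. Hspb1, the small heat shock protein Hsp27 that binds actin and unfolded proteins, was 6.19, 5.03 and 8.21 in the Ly6C high groups, and 3.78 and 5.68 in the Ly6C low groups. Its highest group was Ly6C high on day 4, and its Ly6C low group of day 4 was below the day 1 level. The other genes of the list of heat shock proteins and cochaperones mostly had scores below 0. Of its 45 eligible genes, 7 scored above 0 (15.6%, against 8.62% of all eligible genes) and 4 were members. The list's median score was -0.34 against -0.47 over all eligible genes. In Ly6C high cells 38 of the 45 were lower on day 2 than on day 1, with a median difference of -0.40 against 0.02 over all eligible genes. From day 2 to day 4 the list's median difference was 0.06 in Ly6C high and -0.21 in Ly6C low cells, against -0.02 and 0.04 over all eligible genes. The most abundant listed genes that were not members had scores below 0: -1.05 for Hspa5, the chaperone of the endoplasmic reticulum, -0.05 for Hspa8, the constitutive Hsp70, -0.29 for Hsp90ab1 and -1.01 for Hsp90b1. Hspa8 was 14.90 in Ly6C high cells on day 1, 14.04 on day 2 and 14.23 on day 4, so that days 2 and 4 lay close together below day 1. Hsph1 (0.07) and Dnajb6 (0.10), both chaperones that work with Hsp70, scored above 0 without reaching the members, as did Ier5 (0.01).

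**Figure D2:**
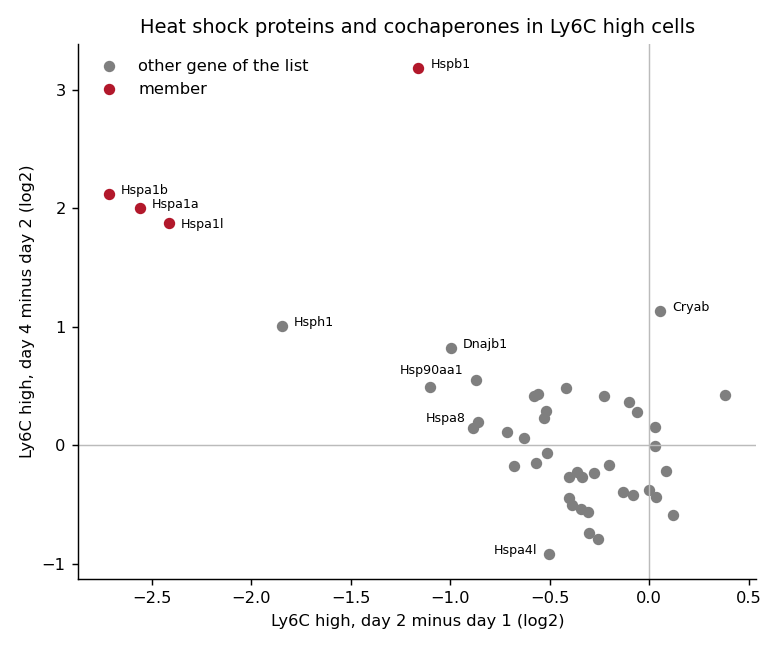
The 45 eligible genes of the heat shock list in Ly6C high macrophages: day 2 minus day 1 (x axis) and day 4 minus day 2 (y axis), both in log2 units of the authors' means, 1 point per gene. Members are red. Hspa1b, Hspa1a and Hspa1l stand at the left with falls of over 2 log2 units, Hspb1 has the highest rise after day 2, and most other genes lie within 1 log2 unit of 0 on both axes.

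Taken over all members, dips of this size were uncommon and mostly small. Of the 10111 eligible genes, 9 (0.089%) had a score of at least 1, meaning at least 2-fold, and 50 had a score of at least 0.5, of which all are members by construction. The 9 are Hspa1b, Hspa1a, Igfbp3, Hspa1l, Boc, G530011O06Rik, Il1rl2, Hes1 and Gbp10. A score above 0 was seen in 872 genes (8.62%). The mirror pattern, a peak on day 2, was scored in the same way as the lowest day 2 value minus the highest of days 1 and 4. A peak score above 0 was about as frequent, in 882 genes, but the highest peak score was 0.45, no gene reached 1, and 72 genes had a dip score at least as high as the highest peak score. After quantile normalization of the groups 11 genes did, so the number depends on the scaling. Just inside the limit of the membership were Kctd21 (0.38), Prg4 (0.37) and Zc3h12c (0.37), and just outside H2-Q6, Cdon and Mll1 (each 0.36).

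**Figure D3:**
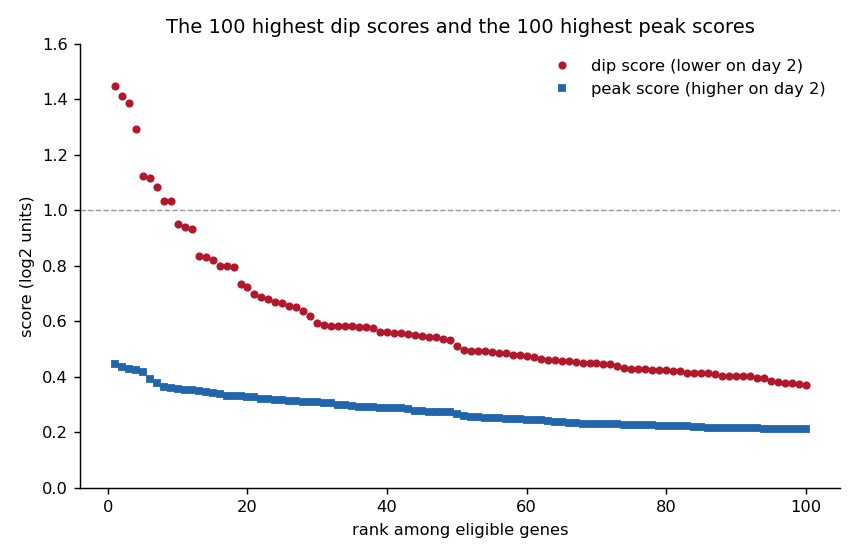
Scores (log2 units) of the 100 genes with the highest dip scores (red circles) and of the 100 genes with the highest peak scores (blue squares), by rank among eligible genes. The dashed line marks a score of 1, which is 2-fold. The dip scores start at 1.45 and end at 0.37, and the peak scores start at 0.45 and end at 0.21.

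The members' low levels limit the precision. On day 1, 47 members had a value below 6 in Ly6C high cells, 33 were at 6 or more in all 5 macrophage groups, and 19 were under 2 in at least 1 day 2 group. Bmper, Nox4 and Npr2 were listed at 0 in Ly6C low cells on day 2. A log2 value of 2 stood for about 5.97 to 9.70 reads in a library. The counting error of the score, which covers counting only and not the spread between animals, had a median of 0.12 over the members and reached 0.61. The score was smaller than its counting error in 4 members (Bmper, Dnase1l3, Nox4 and Npr2) and smaller than 2 counting errors in 13. In 73 members the lowest value outside day 2 was that of Ly6C high cells on day 1, in 18 that of Ly6C low cells on day 4 and in 9 that of Ly6C high cells on day 4. The higher day 2 value was that of Ly6C high cells in 85 members and in 53.2% of eligible genes.

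Most of the members lay further from their day 2 level on day 4 than on day 1. In Ly6C high cells, 15 members were at least 2-fold lower on day 2 than on day 1, as were 0.949% of eligible genes, and 73 were at least 2-fold higher on day 4 than on day 2, as were 13.1%. In Ly6C low cells 76 were at least 2-fold higher on day 4 than on day 2, as were 10.7% of eligible genes. These contrasts are the ones the rule used, so nothing is read from the counts. The members' median difference in Ly6C high cells was -0.58 from day 1 to day 2 and 2.20 from day 2 to day 4.

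For description the members were split into 2 courses by a 2-fold cut between days 1 and 4. Some lay close to the cut, such as Pxdc1 (0.996 on the log2 scale) below it and Hes1 (1.15) above it. In 56, the Ly6C high level of day 4 was at least 2-fold above that of day 1 (16.8% of eligible genes did this), and these are called rising members here. In the other 44, called returning members, day 4 was within 2-fold of day 1. The rising members had low values on days 1 and 2: their median was 4.75 in Ly6C high cells on day 1, 4.20 on day 2 and 7.41 on day 4, and 3.19 and 5.74 in the Ly6C low groups. The returning members had medians of 8.22, 7.30 and 8.30 in the Ly6C high groups and of 7.21 and 8.39 in the Ly6C low groups.

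**Figure D4:**
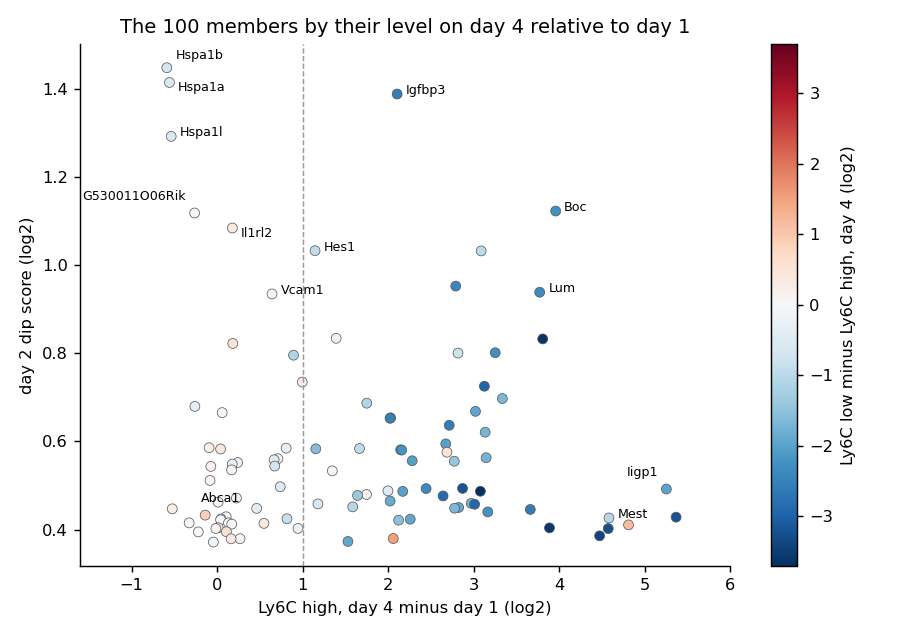
The 100 members by the Ly6C high level of day 4 minus that of day 1 (x axis, log2) and the dip score (y axis, log2). Colour gives Ly6C low minus Ly6C high on day 4 and the dashed line marks 2-fold. The x axis and the colour share the Ly6C high value of day 4. To the left of the line are the 44 returning members, mostly pale, and to the right the 56 rising members, of which 44 are at least 2-fold lower in Ly6C low cells.

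The courses also differed in how the members were shared between the Ly6C sorts. The rule used all of these groups, so the counts describe the members and are set beside those of all eligible genes. Rising members are defined by their Ly6C high value of day 4, and the day 4 difference between the sorts subtracts the same value. On day 4 the courses therefore differ partly by definition, also among members that passed the filter in another group. On day 2, 31 members were at least 2-fold lower in Ly6C low than in Ly6C high cells (6.81% of eligible genes) and 0 were at least 2-fold higher (3.57%). On day 4 the numbers were 45 lower (8.18%) and 2 higher (2.34%), the 2 being Acta1 and Dnase1l3. All 31 of day 2 and 44 of the 45 of day 4 were rising members (the other was Arc), and 30 were at least 2-fold lower on both days (5.24% of eligible genes). The filter bears on these counts: 31 of the 56 rising and 2 of the 44 returning members reached a value of 6 only in Ly6C high cells on day 4, against 4.38% of eligible genes, and such members make up 31 of the 45. Of the 67 members that reached 6 in another macrophage group, 14 were at least 2-fold lower in Ly6C low cells on day 4, against 4.52% of such eligible genes, and all 14 were among the 25 rising members of this kind. The median difference of all rising members, Ly6C low minus Ly6C high, was -1.09 on day 2 and -1.94 on day 4, against -0.19 and 0.00 for the returning members.

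Several rising members are genes of connective tissue and of cells around vessels. Igfbp3, which binds insulin-like growth factors in the extracellular space, was 5.85, 4.01 and 7.96 in the Ly6C high groups, and 0.94 and 5.40 in the Ly6C low groups. It had the largest difference between the sorts on day 2, 8.42-fold, which rests on a Ly6C low value near the floor. Lum, the collagen-binding proteoglycan lumican, was 5.28, 4.34 and 9.05 in the Ly6C high groups, and 2.14 and 6.69 in the Ly6C low groups. Vtn, the adhesion protein vitronectin, was 2.85, 2.01 and 6.65, and 0.10 and 3.01 in the same order. In all 3 the Ly6C low group of day 2 was the lowest, in Vtn close to the floor, and the Ly6C high group of day 4 the highest. Tnc, the matrix protein tenascin C of healing tissue, was 6.76, 6.06 and 10.10 in the Ly6C high groups and 5.01 and 8.41 in the Ly6C low groups. In Tnc too the Ly6C low group of day 2 was the lowest and the Ly6C high group of day 4 the highest. Ddr2, a receptor for fibrillar collagen, was 5.23, 4.63 and 7.90, and 2.23 and 5.88. Abi3bp, a matrix protein, was 3.35, 2.73 and 6.49, and 1.33 and 4.78. Igfbp3, Vtn, Ddr2 and Abi3bp reached the filter value of 6 only in Ly6C high cells on day 4, unlike Lum and Tnc.

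Further rising members of this kind had low scores. Has1, which makes hyaluronan, had the largest difference between the sorts on day 4: 7.78 in Ly6C high against 4.09 in Ly6C low cells, 13-fold. Has1 reached the filter value of 6 only in that Ly6C high group, so the filter bears on this difference. Pdgfrb, the receptor for platelet-derived growth factor B on pericytes and fibroblasts, was 6.06, 5.62 and 9.22 in the Ly6C high groups and 3.73 and 7.01 in the Ly6C low groups. Acta2, smooth muscle actin, was 6.58, 6.16 and 8.70, and 5.56 and 7.17. Prg4, the lubricating proteoglycan lubricin, was 6.43, 5.63 and 7.96, and 4.40 and 6.0.

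Markers of fibroblasts shared the high day 4 level of these genes but, as a list, not the fall from day 1 to day 2. In Ly6C high cells 2 of the 15 were lower on day 2 than on day 1. Their median difference was 0.93, against 0.02 over all eligible genes. Of the 15 listed fibroblast markers, all eligible, 2 were members (Lum and Pdgfrb) and also the only ones with a score above 0, and the list's median score was -1.15. Their summed level, on the log2 scale, was 9.29, 10.69 and 15.996 in the Ly6C high groups, and 8.21 and 14.001 in the Ly6C low groups, against 6.44 in neutrophils. None of them was listed at 0 in a macrophage group. Collagen genes led the sum: Col3a1 was 7.34, 9.17 and 14.51 in the Ly6C high groups, and Col1a1 was 5.18, 8.0 and 13.83. Their scores were -1.83 and -2.82, and those of Col1a2 and Postn, a matrix protein, were -2.24 and -1.15. The summed level of the 15 endothelial markers was 10.56, 10.80 and 13.19 in the Ly6C high groups and 10.71 and 10.55 in the Ly6C low groups of days 2 and 4. None of the endothelial markers scored above 0 or was listed at 0. The summed level of the 8 markers of pericytes and smooth muscle was 8.998, 8.90 and 11.71 in the Ly6C high groups and 8.93 and 9.79 in the Ly6C low groups. What part of the members' values comes from such cells was not tested.

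Des and Acta1 are genes of muscle fibres, and they differed from the connective tissue genes in being highest in Ly6C low cells. Des, the intermediate filament protein desmin, was 4.37, 3.80 and 7.06 in the Ly6C high groups and 2.99 and 7.57 in the Ly6C low groups. Acta1, the actin of skeletal muscle, was 3.30, 2.35 and 5.36, and 2.92 and 6.88. Acta1 had the highest Ly6C low minus Ly6C high difference of all members on both days, 0.57 and 1.52. Only 3 of the 16 listed muscle markers were eligible, and all 3 scored above 0 (Mylpf, a myosin light chain, at 0.02). Among those too low to be eligible, Tnnt3 had a score of 1.82 and values of 2.77, 0.64 and 3.71 in the Ly6C high groups, Atp2a1 had a score of -0.58 and Tnni2 one of -1.17. The summed level of the muscle list was 6.34, 6.07 and 8.35 in Ly6C high cells and 6.22 and 9.28 in Ly6C low cells. The number of its markers listed at 0 was 6, 5 and 1 in the Ly6C high groups of days 1, 2 and 4 and 6 and 0 in the Ly6C low groups. Myog, Myf5 and Pax7, regulators of myogenic cells, were listed at 0 on days 1 and 2 in macrophages. The part of muscle RNA in the values of Des and Acta1 was not tested.

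Some members encode receptors and ligands. Il1rl2, the receptor for interleukin 36, was 5.76, 4.68 and 5.94 in the Ly6C high groups, and 4.58 and 6.27 in the Ly6C low groups. Its neighbour Il1rl1, the interleukin 33 receptor ST2, was 5.45, 4.86 and 7.11, and 4.48 and 6.16. Both receptors had their lowest values in the day 2 groups, but Il1rl2 was a returning and Il1rl1 a rising member. They lie 62.0 kb apart on chromosome 1. Il33, the alarm cytokine that binds ST2, was itself a rising member, with 4.67, 4.00 and 7.69 in the Ly6C high groups and 2.56 and 5.73 in the Ly6C low groups. The other measured relatives of the family were not members, with scores of -0.53 for Il1r1, -2.38 for Il1r2, -1.37 for Il1rap and -3.13 for Il18rap.

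Boc, a cell surface co-receptor for Hedgehog ligands, was 2.15, 1.03 and 6.12 in the Ly6C high groups and 0.60 and 3.88 in the Ly6C low groups. Its score of 1.12 had a counting error of 0.54, which comes from the low Ly6C high values of days 1 and 2. Its partner Cdon fell just outside the members with values of 3.51, 3.14 and 6.26, and 2.88 and 5.28. Cx3cl1, the membrane-bound chemokine fractalkine, was 3.43, 2.63 and 6.68, and 1.81 and 4.40. Vcam1, the adhesion molecule that binds integrins of leukocytes, was at a higher level, with 9.39, 8.45 and 10.03 in the Ly6C high groups and 8.24 and 9.92 in the Ly6C low groups. The sorts were nearly level for Vcam1 on each day, and the counting error of its score of 0.93 was 0.04.

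Of the Notch pathway, in which receptors are cut on ligand binding and switch on Hes genes, 2 receptors and a target were members. Notch1 was 10.55, 9.93 and 10.33 in the Ly6C high groups and 9.43 and 10.40 in the Ly6C low groups. Notch4 was 6.10, 5.52 and 8.25, and 4.40 and 6.16. The first was a returning and the second a rising member. Hes1, the repressor that Notch induces, was 6.28, 5.25 and 7.43, and 3.23 and 6.50. Hes1 in Ly6C low cells was 9.65-fold higher on day 4 than on day 2. The other measured genes went otherwise: Notch2 and Notch3 scored -0.38 and -0.30, and Hes6, the only other eligible gene of the Hes and Hey family, scored -0.75. The transcription factors Tead1 and Tead2, which carry the signal of the Hippo pathway, were both rising members from low levels, 3.61 and 3.22 in Ly6C high cells on day 1, 3.16 and 2.78 on day 2, and 6.59 and 6.0 on day 4. In Ly6C low cells Tead1 was 1.23 and 4.80 and Tead2 1.02 and 4.33 on days 2 and 4. A second table row named Tead1 was too low to be eligible.

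Genes of the interferon response were represented by guanylate-binding proteins, GTPases that act on membranes of intracellular pathogens, and by the related Iigp1. Gbp10 was 2.99, 1.96 and 6.08 in the Ly6C high groups, and 1.16 and 5.10 in the Ly6C low groups. Gbp5 was 6.77, 5.93 and 8.16, and 5.04 and 8.0. Gbp6 was 4.52, 3.72 and 7.34, and 3.38 and 6.53. All 3 were lowest in the Ly6C low group of day 2 and highest in the Ly6C high group of day 4. For Gbp10 the latter was the only group that reached the filter value of 6. Their identity is uncertain: the identifier of Gbp5 (ENSMUSG00000040264) carries the name Gbp2b in GENCODE M21, that of Gbp6 (ENSMUSG00000079362) is a gene model spanning Gbp6 and Gbp10, that of Gbp10 is absent from it, and the genes share much of their sequence. Iigp1 was 3.37, 2.88 and 8.62, and 1.97 and 6.63, so its difference from day 2 to day 4 was 5.75 on the log2 scale in Ly6C high cells.

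Of the 31 genes of the wider interferon list, all eligible, 6 scored above 0 (19.4%, against 8.62% of all eligible genes), 2 were members (Gbp5 and Iigp1), and the median score was -0.57, against -0.47 over all eligible genes. The guanylate-binding proteins Gbp2, Gbp3 and Gbp7 scored 0.07, 0.07 and 0.10, and Gbp4 and Gbp9 scored -0.12 and -0.16. Among the most abundant listed genes, the transcription factors Irf8 and Irf1 and the proteasome gene Psmb8 scored 0.01, 0.06 and -0.21. Most of the interferon list did not fall on day 2. In Ly6C high cells 6 of the 31 genes were lower on day 2 than on day 1. The list's median difference was 0.57, against 0.02 over all eligible genes. Nonclassical class I antigen genes were members in H2-Q7, with 9.52, 8.96 and 10.23 in the Ly6C high groups and 8.71 and 10.01 in the Ly6C low groups, and H2-Q5, with 7.33, 6.83 and 8.07, and 6.30 and 7.55. These 2 genes lie 41.4 kb apart, and GENCODE M21 classes H2-Q5 as a polymorphic pseudogene. Their relative H2-Q6, just outside the members, was 9.91, 9.55 and 10.73, and 9.32 and 10.54. Since H2-Q genes are near copies of each other, how reads were split among them is uncertain.

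Of the list of immediate early genes, which respond to stimuli without new protein synthesis, 13 of 42 eligible genes scored above 0 (31.0%, against 8.62% of all eligible genes), 4 were members, and the median score was -0.19. Gadd45a, a growth arrest and DNA damage response gene, was 7.91, 7.08 and 8.09 in the Ly6C high groups, and 6.93 and 8.63 in the Ly6C low groups. Arc, known from synaptic activity and also expressed in migrating leukocytes, was 5.71, 4.68 and 6.61, and 4.41 and 5.48. Klf9, a transcription factor induced by glucocorticoids and also the only member from the glucocorticoid list, was 6.48, 6.0 and 7.30, and 5.70 and 6.43. Dusp6, a phosphatase that switches off the kinase ERK, was 8.53, 8.02 and 9.47, and 8.13 and 9.22. In Ly6C high cells all 4 were within 2-fold between days 1 and 4. The most abundant other genes of the list did not reach the members, with scores of -0.70 for Zfp36, -0.21 for Junb, 0.13 for Klf6 and -0.43 for Fosb.

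Among the 44 returning members were the genes of the highest values. Abca1, which exports cholesterol from macrophages, had the highest mean value of the members: 13.61, 12.75 and 13.47 in the Ly6C high groups and 13.04 and 14.36 in the Ly6C low groups. It was also 1 of the 15 members whose higher day 2 value was that of Ly6C low cells. Mmp14, a membrane-bound protease of the matrix, was 11.48, 10.98 and 11.70, and 11.01 and 11.54. Slc5a3, a myo-inositol transporter that responds to osmotic stress, was 9.26, 7.91 and 9.0, and 7.79 and 8.59. It lies within Mrps6 on the same strand, so reads of the 2 genes can be confused. Mid1, a ubiquitin ligase of microtubules, was 7.0, 6.34 and 7.06, and 5.96 and 7.05. G530011O06Rik, a gene of the opposite strand inside Mid1, was 7.38, 6.0 and 7.12, and 5.74 and 7.14. Since strand use in counting is not given in the sources used here, reads of this pair cannot be told apart. Of the members just inside the limit, 2 were returning. Zc3h12c, a relative of the RNA-degrading enzyme regnase 1, was 10.06, 9.49 and 10.02, and 9.57 and 9.94. Kctd21, an adaptor for ubiquitin ligases, was 6.04, 5.58 and 6.20, and 5.66 and 6.51.

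The remaining members with high scores are given in brief. Pxdc1 was 6.86, 6.12 and 7.85 in the Ly6C high groups and 5.84 and 8.16 in the Ly6C low groups. Dst, a linker of the cytoskeleton, was 7.98, 7.29 and 9.73, and 7.09 and 8.62. Pxdc1 was a returning and Dst a rising member. The other 4 were rising members too. In Ly6C high cells Tmem204 went from 3.36 on day 1 to 6.16 on day 4, and S100a16, a calcium-binding protein, from 4.67 to 7.79. Afap1l1 went from 5.57 to 7.60, and Amotl1, a junction protein of the Hippo pathway, from 4.96 to 7.68. The Ly6C high values of these 4 genes on day 2 were 2.41, 3.94, 4.72 and 4.32 in this order. Nox4, an oxidase that makes hydrogen peroxide, had the lowest mean value of the members, with 1.55, 1.14 and 6.12, and 0.00 and 2.87.

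Day 1 neutrophils were not used by the rule or its filter, but the macrophage values they are compared with were. The counts that follow are thus a description of selected genes. The neutrophil group had the macrophage genes Csf1r, Emr1 and Cd68 at 13.27, 12.22 and 13.29. In day 1 Ly6C high cells these were 13.52, 12.34 and 13.44. What part macrophage RNA has in the values of the neutrophils was not tested. Nor was the source of their Xist level, 6.42 against 0.17 in day 1 Ly6C high cells. Their value was at least 2-fold lower than that of day 1 Ly6C high macrophages in 50 members (12.5% of eligible genes) and at least 2-fold higher in 16 (13.5%). Of the 50, 38 were rising and 12 returning members. The members' median in neutrophils was 2.67 for the rising and 8.42 for the returning ones, against 4.75 and 8.22 in day 1 Ly6C high macrophages. The lowest neutrophil value relative to these macrophages was that of Hspa1b, 10.01 against 14.40, which is 21-fold. Hspa1a, at 10.48, and Hspa1l, at 5.16, were 14-fold and 14.8-fold lower. The neutrophil level of each of these 3 genes was thus below the day 2 macrophage levels too. The highest was that of Gadd45a, 11.33 against 7.91, which is 10.7-fold. Compared with both day 2 macrophage groups, 21 members were at least 2-fold higher in neutrophils (8.81% of eligible genes).

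**Figure D5:**
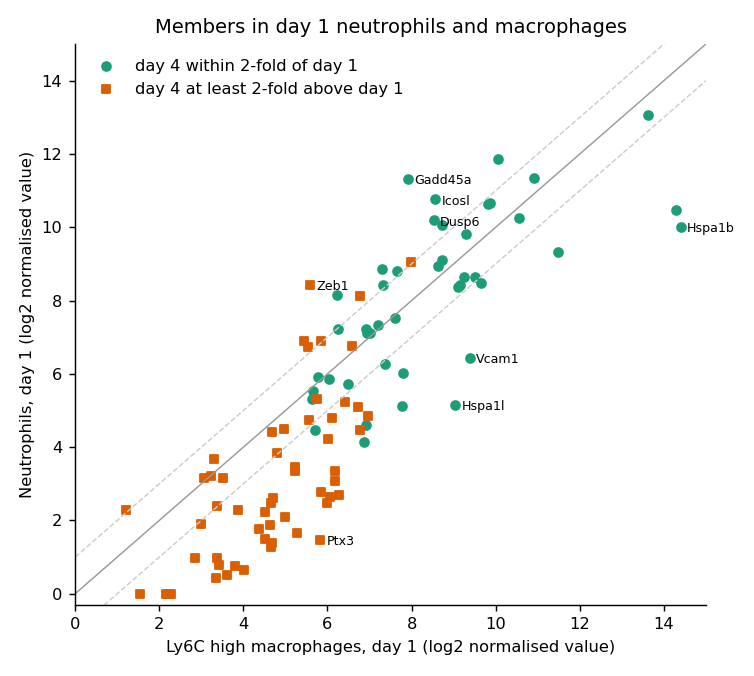
Log2 normalised value of the 100 members in day 1 Ly6C high macrophages (x axis) and day 1 neutrophils (y axis), 1 point per gene. Green circles are the 44 returning and orange squares the 56 rising members, the solid line marks equal values and the dashed lines 2-fold. Rising members lie mostly below the line at low values, and Hspa1b and Gadd45a lie farthest from it on either side.

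The members shared few features of gene structure. In GENCODE M21, 99 identifiers were found, and 96 of these genes are protein coding, as are 98.0% of the eligible genes found there. The median exonic length was 4815 bp, against 4632 bp for eligible genes. Members made up 2.44% of the eligible genes of chromosome 18 (6 of 246), 1.91% of those of chromosome 17 (10 of 523) and 1.82% of those of chromosome 1 (11 of 603), against 0.989% over all chromosomes. Promoter windows of 300 bases, 250 before and 50 after the start, were matched for 74 members. A gene counted if any of its windows held the letters on either strand. The heat shock element of 2 units was found in 10 of these members (13.5%), against 13.97% of the eligible genes with a window. Counted by single window, it was in 15.1% of all windows. The element of 3 alternating units was in 0 of 74 members and in 0.565% of the eligible genes with a window. The TATA box (TATAAA) was in 15 (20.3%, against 8.56%), the AP-1 site (TGANTCA) in 8 (10.8%, against 6.40%) and the NF-kB site in 9 (12.2%, against 6.41%). The E-box (CACGTG) was in 6 (8.11%, against 12.3%) and the CCAAT box (CCAAT) in 26 (35.1%, against 42.1%). The GC box (GGGCGG) was in 55 (74.3%, against 70.3%), the CRE (TGACGTCA) in 3 (4.05%, against 3.63%) and the CArG box in 2 (2.70%, against 1.59%). These are matches of letters and carry no test.

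Other lists held no member. No gene scored above 0 among 33 eligible cell cycle genes, 24 inflammatory cytokines and chemokines, 17 circadian clock genes or 16 p53 targets. Of 77 ribosomal protein genes 35 scored above 0 (45.5%, against 8.62% of all eligible genes), with a median score of -0.02 against -0.47. In all, 15 of the 100 members were in any of the 30 lists, against 4.98% of eligible genes.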

How the data were processed

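The 17 samples of sorted cells fall into 6 groups. Per the labels' protocols, poly-A libraries were made with a TruSeq kit and run on a HiSeq sequencer. Listed in the submitters' processing notes, without their roles, are TopHat2 2.0.7, Cufflinks 2.0.2 and the build mm10. How values were normalised, which annotation was used and whether strand was used in counting is not given in the sources used here. Log2 normalised reads were deposited by the authors in 1 table with 1 column per group, which was taken as the mean of its samples; no column of single samples was used, and the number of per-sample columns left out was 0. Nothing in the labels says whether the samples of a group were separate animals.

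The members and the gene lists were chosen with earlier results of these data known. Genes were scored as described at the start of the results, with a filter of 6 on the log2 value. The planned limma test needs single samples, so no test was run. Depth was read from the lowest values. In each macrophage column, 45.1 to 58.3% of these lay within a relative tolerance of 2e-05 on whole multiples of a step per library, or on products of such steps. A read was worth 0.412 to 0.670 normalised units over 15 libraries, which gave the reads behind a value and a Poisson counting error. Total counts per sample cannot be had from these means.

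Named are the 30 members with the highest scores, members in a list, in a family with another member, at an extreme or just inside the limit, the 3 genes just outside it, and the most abundant further genes of lists with at least 2 members. A few other genes were named after their values were seen. One gene that the rule names is not reported here. Gene positions come from GENCODE M21 (GRCm38), matched by identifier, and promoters from RefSeq (GRCm38.p6), matched for 74 of 100 members. Scripts in Python 3.11.15 with numpy 2.4.6, pandas 2.3.3 and matplotlib 3.10.9 were tested on simulated data. Alternatives were pseudocounts of 0.5 and 5 on linear values, filters of 5, 7 and none, quantile and median-ratio scaling, means in place of extremes, and the leaving out of single columns.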

Additional observations from a re-analysis of the deposited data

How the results depend on the processing

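With 1 value per group, the limits are those of the deposited means: limma and the leaving out of single samples could not be run. No paired analysis was possible because the table has 1 value per group and no column carries a replicate number. Of the 100 members, 67 to 97 stayed among the 100 highest scores under 8 alternatives. The membership rested most on the minimum, on day 1 and on the filter: 20 stayed with no filter, 12 with means in place of minimum and maximum, 47 with Ly6C high columns only, 7 without the day 1 column and 51 without the Ly6C low column of day 4. The 100th score, 0.37 as reported, was 0.33 with 5 added to linear values, 0.45 and 0.31 with filters of 5 and 7, 0.30 after quantile normalization, 0.72 with no filter, 2.94 with means, 0.58 with Ly6C high columns only, and 2.69, 0.42 and 0.54 without the day 1, the day 4 Ly6C high and the day 4 Ly6C low column. The genes with a score of at least 1, 9 as reported, were 5 with 5 added, 3 after quantile normalization, 34 with no filter, 699 with means, 31 with Ly6C high columns only, 478 without day 1 and 29 without the day 4 Ly6C low column. Members at least 2-fold apart between sorts on day 2 were 16 with 5 added, against 31. Genes whose dip score reached the highest peak score numbered 11 after quantile normalization and 112 with means, against 72. The alternatives for this number and for the count of rising members were chosen after seeing the data. The heat shock members numbered 4 under 5 of 6 alternatives and 3 after quantile normalization. Hspa1a, Hspa1b and Hspa1l were among the 100 highest scores under each alternative except with means and without the day 1 column, where 0 of them were. Their lowest value outside day 2 was that of Ly6C low cells on day 4. Without the day 1 column their scores thus stayed as reported and fell below the 100th score of 2.69. The cause of the other shifts was not tested.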
